A study of Homo sapiens with 9 samples.

Results

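The 39 genes described here encode conjugating and other drug-metabolizing enzymes, and their expression was followed in Huh-7 cells, a human hepatocellular carcinoma line, with and without 2 of the vault RNAs (vtRNAs), short noncoding RNAs first found in vault particles. The members were taken as a list of symbols by enzyme family and matched by Ensembl identifier to the deposited count table, where all 39 were found among 60664 listed genes. They are 9 UDP-glycosyltransferases (UGTs), 7 sulfotransferases (SULTs), 13 glutathione S-transferases with their microsomal relatives (GSTs and MGSTs), 2 N-acetyltransferases (NATs), 2 methyltransferases, 2 epoxide hydrolases (EPHXs) and 4 aldo-keto reductases (AKRs). Total RNA of unedited Huh-7 cells (WT), of Huh-7 cells lacking the VTRNA1-1 gene (1-1 KO) and of Huh-7 cells lacking the VTRNA1-2 gene (1-2 KO) was sequenced as mRNA, with 3 libraries for each line and none of the lines treated. The cells were grown to 80% confluency. The 1-2 KO line was cut from the WT cells with CRISPR/Cas9 and is the progeny of 1 cell, and the WT and 1-1 KO lines were received from another laboratory, so that effects of the deletion and differences between lines cannot be told apart. RNA of each line was extracted in triplicate. The study calls these biological replicates, no label says whether they came from separate cultures, and the p-values measure the spread between these libraries.

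Conjugating enzymes attach a polar group to a drug, hormone or metabolite, which makes it easier to excrete. Most UGTs, though not UGT3A1, add glucuronic acid. SULTs add sulfate, GSTs add glutathione, NATs add an acetyl group and the methyltransferases add a methyl group. Epoxide hydrolases open reactive epoxides with water, and the aldo-keto reductases reduce aldehydes and ketones, including those of steroids and of lipid peroxidation. The liver is the main site of most of these reactions, and genes of the same family often sit side by side as near-identical copies.

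Between 32384469 and 41782387 reads were counted per library. A gene was tested with edgeR's quasi-likelihood test if enough reads were counted, which left 17207 genes, and it was called changed at a Benjamini-Hochberg adjusted p below 0.05 over all of them. SULT2B1 was the only member left out, with between 0 and 5 counts per library. Levels are given as CPM, read counts scaled to a common library size with TMM factors, and differences as log2 fold changes with their standard errors (SE). Deletion of the vtRNA genes could not be read from these mRNA libraries, since VTRNA1-1 had 1 count in 1 WT library and VTRNA1-2 had 0 counts in every library. The library of 1-2 KO replicate 1 stood apart from replicates 2 and 3, at 15.1 and 16.1 in chi-square over degrees of freedom, while replicates 2 and 3 differed by 2.67. Pairs of WT libraries, used in both comparisons with WT, ranged from 5.03 to 10.4, and pairs of 1-1 KO libraries from 2.07 to 3.46. Without replicate 1, 31 members were called in 1-2 KO against WT, 8 higher and 23 lower, as many as with it.

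All 8 hepatocyte marker genes, ALB and AFP among them, were read in each line. Their summed level was 14735 to 15693 CPM in WT, 30924 to 31871 CPM in 1-1 KO and 20905 to 22899 CPM in 1-2 KO. All 8 were called higher in 1-1 KO, whereas in 1-2 KO ALB, AFP and APOA1 were called higher, TTR, FGB and TF lower, and APOB and SERPINA1 were not called. Some markers of other cell types were missing and others were clearly read, such as KRT19 at 213 CPM and LUM at 157 CPM on average in WT. TEK and KDR of the 5 endothelial markers and CD68 and MS4A1 of the 5 leukocyte markers never passed 3 counts in any library, CDX1 and FABP2 of the 7 enterocyte markers likewise, and the endothelial sum was 7.41 to 8.04 CPM in WT, 6.42 to 7.22 CPM in 1-1 KO and 0.830 to 1.10 CPM in 1-2 KO. The leukocyte sum was 1.52 to 1.63 CPM in WT, 3.38 to 3.61 CPM in 1-1 KO and 2.62 to 3.18 CPM in 1-2 KO. The sums of the 5 fibroblast markers were 183 to 194, 279 to 292 and 115 to 123 CPM in the same order of lines. LUM carried the lower sum in 1-2 KO, at 62.1 CPM on average after 157 in WT, and COL1A1, COL1A2 and PDGFRB were called higher there. Those of the 6 cholangiocyte markers were 312 to 355, 482 to 495 and 324 to 430 CPM, and those of the 7 enterocyte markers 968 to 1032, 589.6 to 599.6 and 851 to 919 CPM. The enterocyte sum follows VIL1, at 984, 445 and 840 CPM on average, while SI, CDX2 and CDH17 were called higher in both knockouts, with SI at least 323-fold higher in 1-1 KO. In bulk RNA, fewer cells of a type and less RNA per cell cannot be told apart, and the part of these differences in the results that follow was not tested.

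In 1-1 KO against WT, 28 of the 38 tested enzymes were called, 16 higher and 12 lower, beside 63.4% of all tested genes called, 32.5% higher and 30.9% lower. The median log2 fold change of the members was 0.02, and that of all tested genes was 0.01. UGTs and both epoxide hydrolases made up most of the rises, and the aldo-keto reductases held the largest fall. Past a log2 fold change of 1 in size, 6 members were higher and 2 lower, and 13.4% of all tested genes passed that limit in either direction.

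In 1-2 KO against WT, the enzymes were mostly lower. Of the 38 tested, 8 were higher and 23 lower, which is 31 calls beside 54.4% of all tested genes called, 28.2% higher and 26.2% lower. The members' median log2 fold change was −0.44, beside 0.02 for all tested genes. Of the 8 members that rose, 7 were UGTs and the other was GSTP1. Past a log2 fold change of 1 in size, 4 members were higher, all UGTs, and 9 lower, where 11.7% of all tested genes passed. Because both comparisons use the same WT libraries, they are not independent of each other. The libraries of knockout and WT did not overlap for 30 of 38 members in 1-1 KO and 31 in 1-2 KO. Among all 17207 tested genes this held for 11856 and 10055.

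UGT1A1, SULT2A1, GSTA2, MGST2 and EPHX1 were called higher in 1-1 KO and lower in 1-2 KO, and UGT2B4 was the reverse. GSTM2 passed the threshold in neither, with log2 fold changes of 0.00 ± 0.08 (SE) and −0.02 ± 0.08 (SE).

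**Figure D1:**
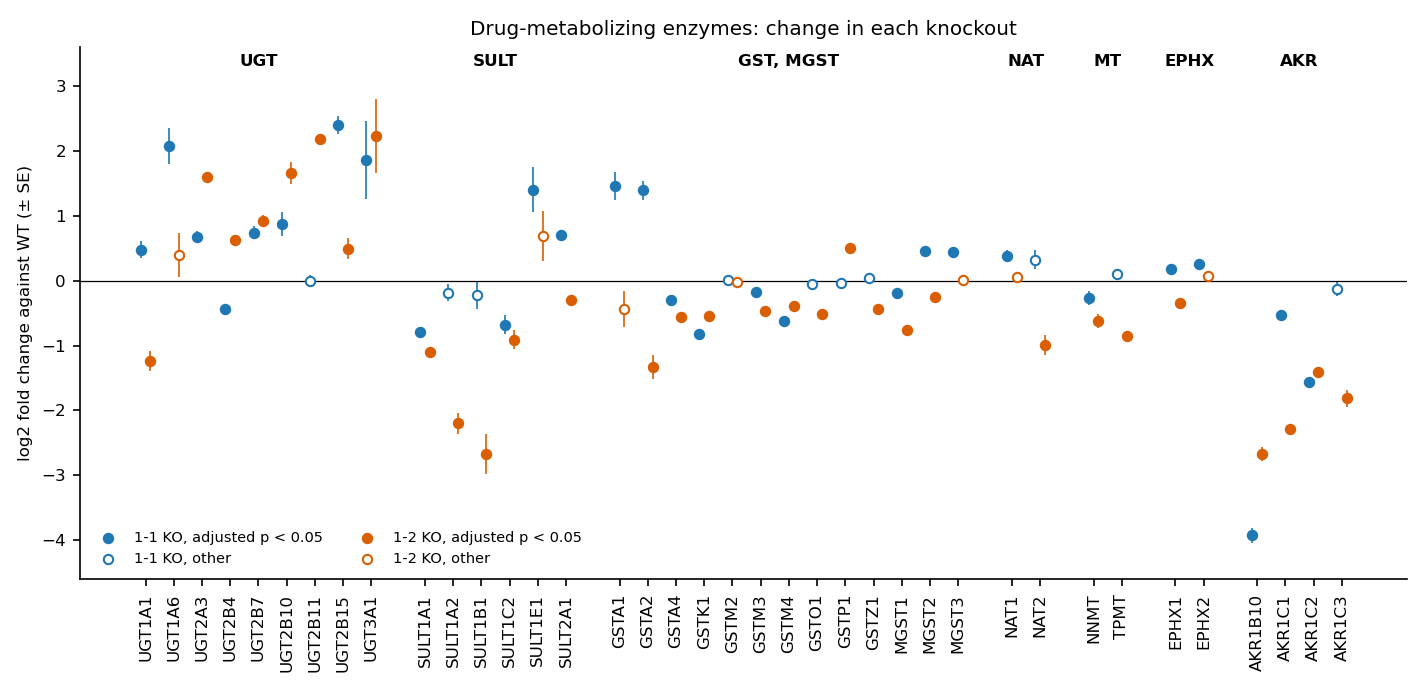
Log2 fold change against WT (vertical axis) of the 38 tested enzymes, grouped by family, in 1-1 KO (blue) and 1-2 KO (orange), fitted with 3 libraries per line. Points are fitted values, bars are standard errors, and filled points passed an adjusted p of 0.05. AKR1B10 lies lowest in 1-1 KO at −3.92, and most UGT points lie above 0 while most of the other 1-2 KO points lie below it.

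Most UGT genes rose, although their summed level in 1-1 KO did not. Of the 9 tested, 7 were higher and 1 lower in each knockout, with median log2 fold changes of 0.74 in 1-1 KO and 0.92 in 1-2 KO. That is 88.9% called in each, beside 63.4% of all tested genes in 1-1 KO and 54.4% in 1-2 KO. The genes of the UGT2 subfamily form a cluster on chromosome 4 and conjugate steroids, bile acids and many drugs. The summed level of the 9 genes was 91.8 ± 3.46 CPM (SD, n = 3) in WT, 85.6 ± 1.2 in 1-1 KO and 165 ± 3.08 in 1-2 KO, and UGT2B4 made up 79.1%, 62.9% and 67.9% of it.

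UGT2B4 (GRCh38, chr4:69480165-69526014), which glucuronidates bile acids, was read at 73.5, 74.8 and 69.6 CPM in WT, at 54.1, 53.6 and 53.9 CPM in 1-1 KO and at 108, 114 and 114 CPM in 1-2 KO. The 3 lines did not overlap, with 1-1 KO below and 1-2 KO above WT. Its log2 fold change was −0.43 ± 0.04 (SE, adjusted p = 2.46e-07) in 1-1 KO and 0.63 ± 0.04 (SE, adjusted p = 5.40e-09) in 1-2 KO. It was the one UGT that fell in 1-1 KO.

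UGT2B11 and UGT2B10 lie in the same cluster. Stretches of 50 bases that also occur in transcripts of other genes made up 42.6% of UGT2B11 and 21.6% of UGT2B10. For UGT2B11 the largest parts were shared with UGT2B25P (19.8%) and UGT2B28 (16%), so that its reads may be shared with them. UGT2B11 (chr4:69199951-69214748) was read at 5.85, 5.33 and 4.56 CPM in WT and at 5.36, 5.42 and 5.00 CPM in 1-1 KO, which overlapped. In 1-2 KO it stood at 24.5, 22.9 and 24.4 CPM, 4.56-fold higher than in WT (log2 fold change 2.18 ± 0.08 SE, adjusted p = 4.6e-11). UGT2B10 (chr4:68815994-68832023), known for nicotine conjugation, rose in both knockouts, from 0.628, 0.906 and 0.697 CPM in WT to 1.28, 1.31 and 1.52 CPM in 1-1 KO and 2.25, 2.61 and 2.22 CPM in 1-2 KO. Its log2 fold changes were 0.88 ± 0.18 (SE, adjusted p = 0.000721) and 1.66 ± 0.17 (SE, adjusted p = 1.23e-06). The 250 bases before the RefSeq start of each are shown because the genes changed unequally while these stretches were 93.1% identical, with 229 of 246 aligned bases the same. Capitals mark bases with no identical partner in the other gene, each sequence runs 5′ to 3′ on the gene's own strand, and the coordinates are those of GRCh38.p14, with UGT2B10 at chr4:68815744-68815993 on the plus strand and UGT2B11 at chr4:69214749-69214998 on the minus strand.
UGT2B10: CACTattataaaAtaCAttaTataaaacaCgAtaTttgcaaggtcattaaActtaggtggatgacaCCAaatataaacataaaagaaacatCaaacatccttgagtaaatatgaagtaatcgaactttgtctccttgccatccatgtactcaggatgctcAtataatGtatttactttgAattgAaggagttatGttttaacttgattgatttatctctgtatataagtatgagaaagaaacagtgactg
UGT2B11: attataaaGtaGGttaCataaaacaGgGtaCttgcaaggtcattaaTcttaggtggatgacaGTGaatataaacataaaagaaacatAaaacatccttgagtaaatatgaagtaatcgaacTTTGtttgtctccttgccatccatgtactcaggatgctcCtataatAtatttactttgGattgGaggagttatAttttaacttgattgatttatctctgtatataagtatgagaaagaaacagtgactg

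UGT2B15 (chr4:68646597-68670652), which conjugates androgens, showed its large rise in 1-1 KO. It was read at 0.804, 0.933 and 1.17 CPM in WT, at 5.05, 5.05 and 5.10 CPM in 1-1 KO and at 1.38, 1.30 and 1.37 CPM in 1-2 KO. The rise in 1-1 KO was 5.23-fold (log2 fold change 2.40 ± 0.13 SE, adjusted p = 1.83e-09). In 1-2 KO all 3 libraries stood above WT, and the log2 fold change was 0.49 ± 0.16 (SE, adjusted p = 0.0155), a call that was lost without WT replicate 1 (0.37, adjusted p = 0.110) and with DESeq2 (0.48, adjusted p = 0.0910).

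UGT2A3 and UGT2B7 rose in both knockouts. UGT2A3, a bile acid UGT, was read at 5.98, 5.78 and 5.13 CPM in WT, at 9.73, 8.92 and 8.50 CPM in 1-1 KO and at 16.8, 16.8 and 17.4 CPM in 1-2 KO, in 3 separate ranges. Its log2 fold changes were 0.68 ± 0.08 (SE, adjusted p = 4.64e-06) and 1.59 ± 0.08 (SE, adjusted p = 6.57e-10). UGT2B7, which glucuronidates morphine and other opioids, went from 3.57, 3.22 and 3.64 CPM in WT to 5.64, 6.17 and 5.61 CPM in 1-1 KO and 6.60, 6.12 and 6.96 CPM in 1-2 KO. The knockouts overlapped each other and stood above WT, with log2 fold changes of 0.74 ± 0.10 (SE, adjusted p = 1.03e-05) and 0.92 ± 0.09 (SE, adjusted p = 1.54e-06).

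UGT1A1, the bilirubin-conjugating enzyme, moved in opposite directions. It was read at 2.56, 3.09 and 2.63 CPM in WT, at 4.20, 3.86 and 3.48 CPM in 1-1 KO and at 1.33, 0.954 and 1.22 CPM in 1-2 KO. No 2 lines overlapped, and the log2 fold changes were 0.48 ± 0.13 (SE, adjusted p = 0.00540) in 1-1 KO and −1.24 ± 0.15 (SE, adjusted p = 9.15e-06) in 1-2 KO. UGT1A6, which prefers small planar phenols, was at 12, 8 and 9 counts in WT, at 53, 35 and 53 counts in 1-1 KO and at 16, 17 and 10 counts in 1-2 KO. It was 4.25-fold higher in 1-1 KO (log2 fold change 2.08 ± 0.28 SE, adjusted p = 1.42e-05), while 1-2 KO overlapped WT (0.40 ± 0.34 SE, adjusted p = 0.345). Both are made from alternative first exons of 1 locus on chromosome 2. Of their annotated exon length, 50.1% of UGT1A1 and 44.2% of UGT1A6 is shared on the same strand with other UGT1A genes, so that their reads cannot be assigned with certainty.

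UGT3A1 was barely read, at 1, 3 and 2 counts in WT, 12, 8 and 6 counts in 1-1 KO and 12, 15 and 6 counts in 1-2 KO. Taking 3 counts per WT library as the limit, it was at least 2.50-fold higher in 1-1 KO and at least 3.24-fold higher in 1-2 KO. The adjusted p was 0.0145 and 0.00434, and the call in 1-1 KO was lost without WT replicate 1 (adjusted p = 0.0660), without 1-1 KO replicate 1 (adjusted p = 0.0639) and with DESeq2 (adjusted p = 0.0602). The 50 nearest tested genes of UGT3A1 on chromosome 5 had a median log2 fold change of −0.91 in 1-2 KO.

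**Figure D2:**
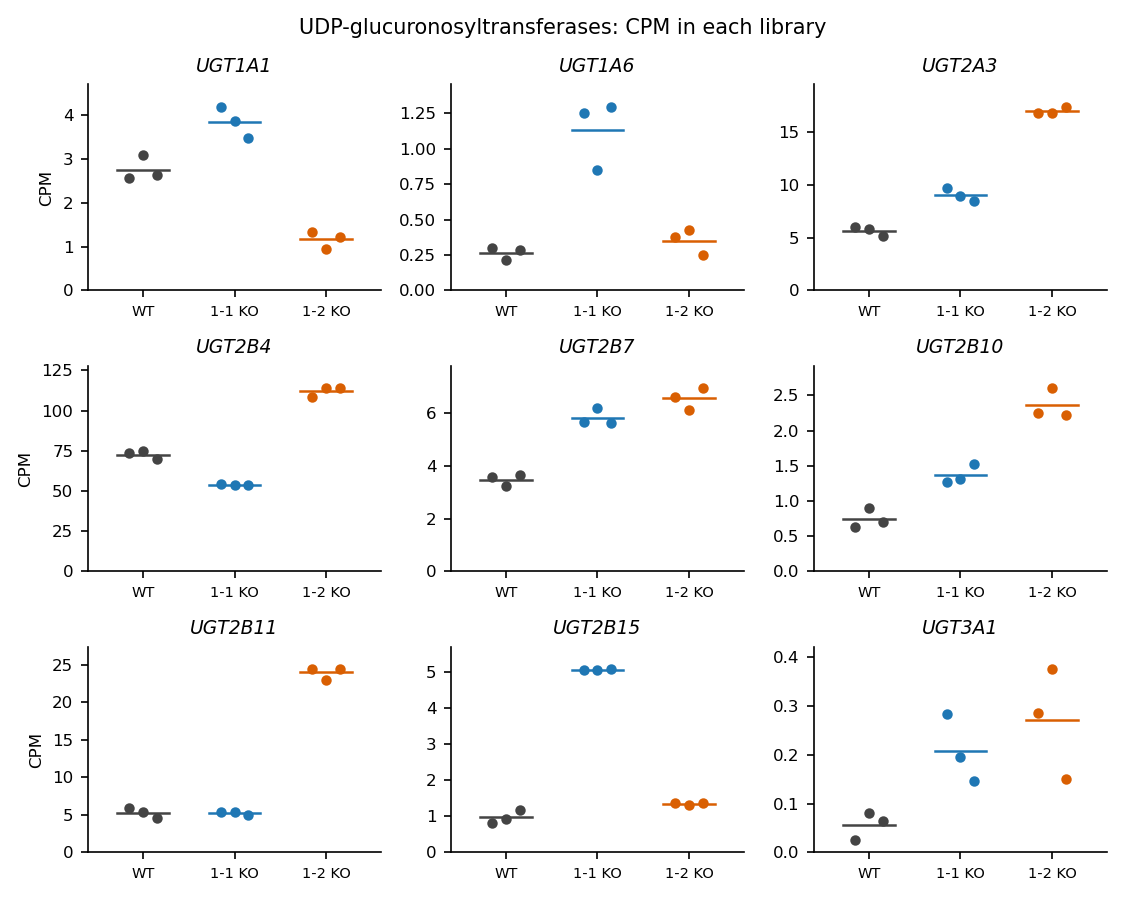
CPM (vertical axes, each starting at 0) of the 9 UGTs in the 3 libraries of each line, with a bar at each mean. UGT2B11 separates 1-2 KO from the other lines, UGT2B15 and UGT1A6 separate 1-1 KO, and UGT1A1 lies above WT in 1-1 KO and below it in 1-2 KO.

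SULTs were lower in 1-2 KO. Of 6 tested, 5 fell and none rose there, with a median log2 fold change of −1.01, while 1-1 KO had 2 rises and 2 falls and a median of −0.21. That is 83.3% called in 1-2 KO and 66.7% in 1-1 KO, beside 54.4% and 63.4% of all tested genes. SULT1 enzymes sulfate phenols, catecholamines and estrogens, and SULT2A1 sulfates bile acids and dehydroepiandrosterone. The summed level of the 7 genes was 35.8 ± 0.974 CPM (SD, n = 3) in WT, 31.4 ± 0.607 in 1-1 KO and 19.3 ± 1.27 in 1-2 KO. SULT1A1 was the leading gene in WT with 57.8% of the sum and in 1-2 KO with 49.8%, and SULT2A1 led in 1-1 KO with 45.0%.

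SULT1A1 (chr16:28605196-28614279), the main phenol sulfotransferase of liver, was read at 21.6, 21.0 and 19.5 CPM in WT. It stood at 12.2, 12.0 and 11.8 CPM in 1-1 KO and at 9.11, 9.21 and 10.6 CPM in 1-2 KO, both below WT. The log2 fold changes were −0.79 ± 0.07 (SE, adjusted p = 2.14e-07) and −1.11 ± 0.07 (SE, adjusted p = 1.06e-08). Its close copy SULT1A2 (chr16:28591943-28597050) was at 2.74, 2.32 and 2.53 CPM in WT and at 1.96, 2.41 and 2.30 CPM in 1-1 KO, with overlap. SULT1A2 fell to 0.474, 0.577 and 0.599 CPM in 1-2 KO, 4.6-fold lower than WT (log2 fold change −2.20 ± 0.16 SE, adjusted p = 5.39e-08). Stretches of 50 bases that also occur in transcripts of other genes made up 26.5% of SULT1A1 and 33.9% of SULT1A2, and how reads matching several places were counted is not stated.

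SULT1B1 and SULT1E1 lie next to the UGT2 genes on chromosome 4. SULT1B1 (chr4:69721167-69787961), a thyroid hormone sulfotransferase, was at 32, 31 and 24 counts in WT, at 33, 30 and 22 counts in 1-1 KO and at 4, 7 and 4 counts in 1-2 KO. It was 6.45-fold lower in 1-2 KO (log2 fold change −2.67 ± 0.31 SE, adjusted p = 4.66e-06), the largest fall among the SULTs, and overlapped WT in 1-1 KO. SULT1E1, the estrogen sulfotransferase, was at 6, 10 and 6 counts in WT, at 17, 23 and 27 counts in 1-1 KO and at 11, 18 and 11 counts in 1-2 KO. It rose in 1-1 KO (log2 fold change 1.40 ± 0.35 SE, adjusted p = 0.00286), and its value in 1-2 KO was 0.69 ± 0.38 (SE, adjusted p = 0.145). Of its transcript sequence, 20.3% in stretches of 50 bases is shared, nearly all with 1 unnamed gene.

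SULT2A1 (chr19:47870467-47886315) moved in opposite directions in the knockouts. It was read at 8.44, 8.87 and 8.78 CPM in WT, at 14.4, 13.4 and 14.6 CPM in 1-1 KO and at 6.88, 7.15 and 7.28 CPM in 1-2 KO, in 3 separate ranges. The log2 fold changes were 0.70 ± 0.07 (SE, adjusted p = 5.61e-07) and −0.29 ± 0.07 (SE, adjusted p = 0.00308). SULT1C2 fell in both, from 3.04, 2.56 and 3.01 CPM in WT to 2.05, 1.60 and 1.71 CPM in 1-1 KO and 1.35, 1.46 and 1.77 CPM in 1-2 KO. SULT2B1, the cholesterol sulfotransferase, had at most 1 count per library in WT, 2 in 1-1 KO and 5 in 1-2 KO, and no fold is given.

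**Figure D3:**
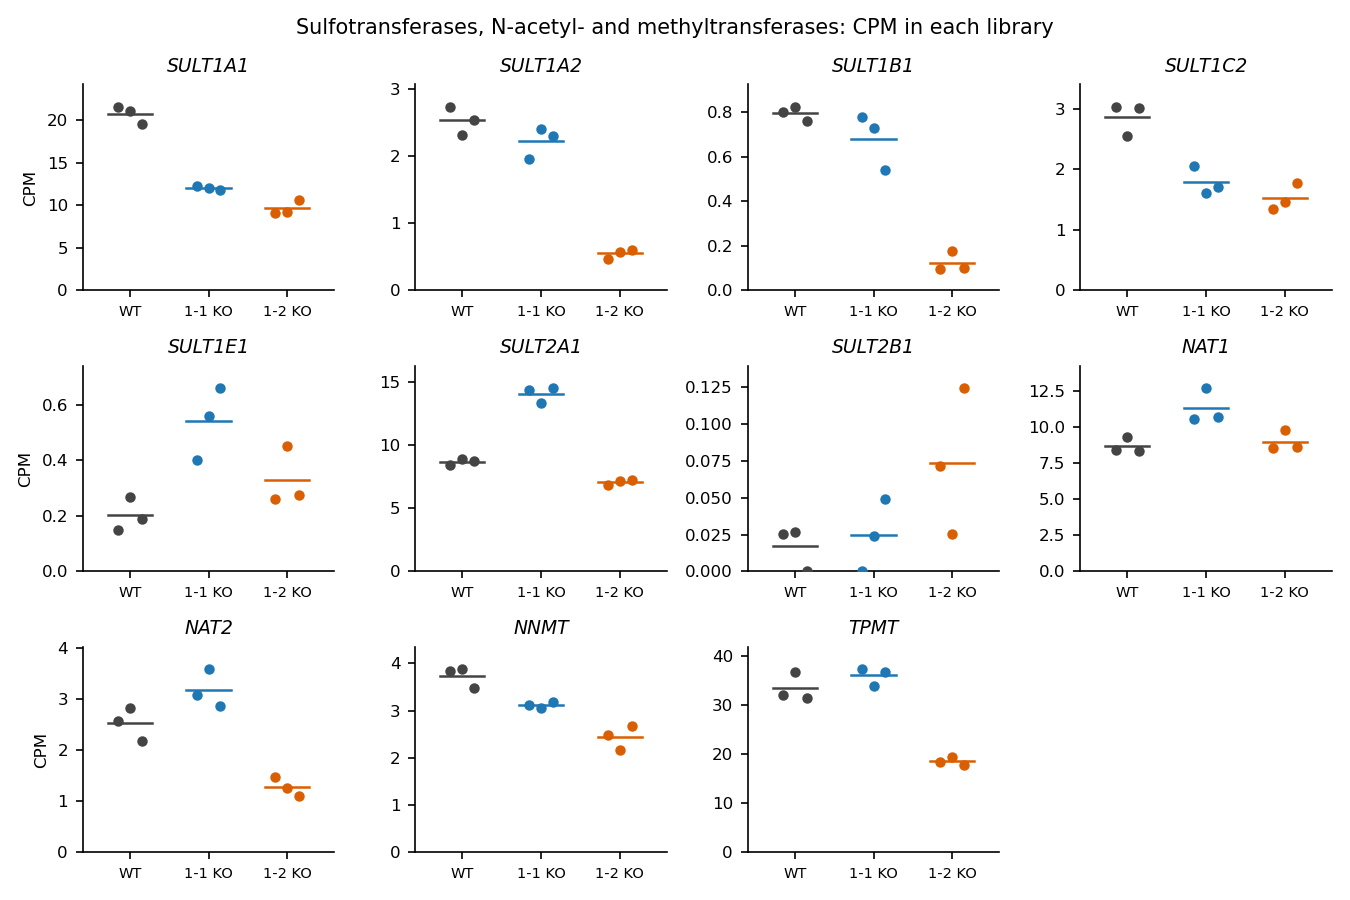
CPM (vertical axes, each starting at 0) of the 7 SULTs, NAT1, NAT2, NNMT and TPMT in the 3 libraries of each line, with a bar at each mean. SULT1A2, SULT1B1, NAT2 and TPMT lie lowest in 1-2 KO with no overlap, and SULT2A1 lies highest in 1-1 KO.

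The UGT2 and AKR1C clusters are also drawn by position. In the chromosome 4 cluster, 16 genes were tested within 600 kb of UGT2B15 to SULT1E1, and 8 of them are members. UGT2B17 and UGT2B28, which are not members, were also higher in both knockouts from 3 counts or fewer per WT library. UGT2B17, an androgen UGT, was at 0 counts in the 3 WT libraries, at 13, 11 and 10 counts in 1-1 KO and at 6, 4 and 9 counts in 1-2 KO, which is at least 3.27-fold and at least 1.87-fold higher. Of the UGT2B15 transcripts, 26.7% in stretches of 50 bases also occurs in UGT2B17. The 50 nearest tested genes of the UGT2 members had median log2 fold changes from −0.09 to −0.07 in 1-1 KO and from −0.02 to 0.03 in 1-2 KO.

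**Figure D4:**
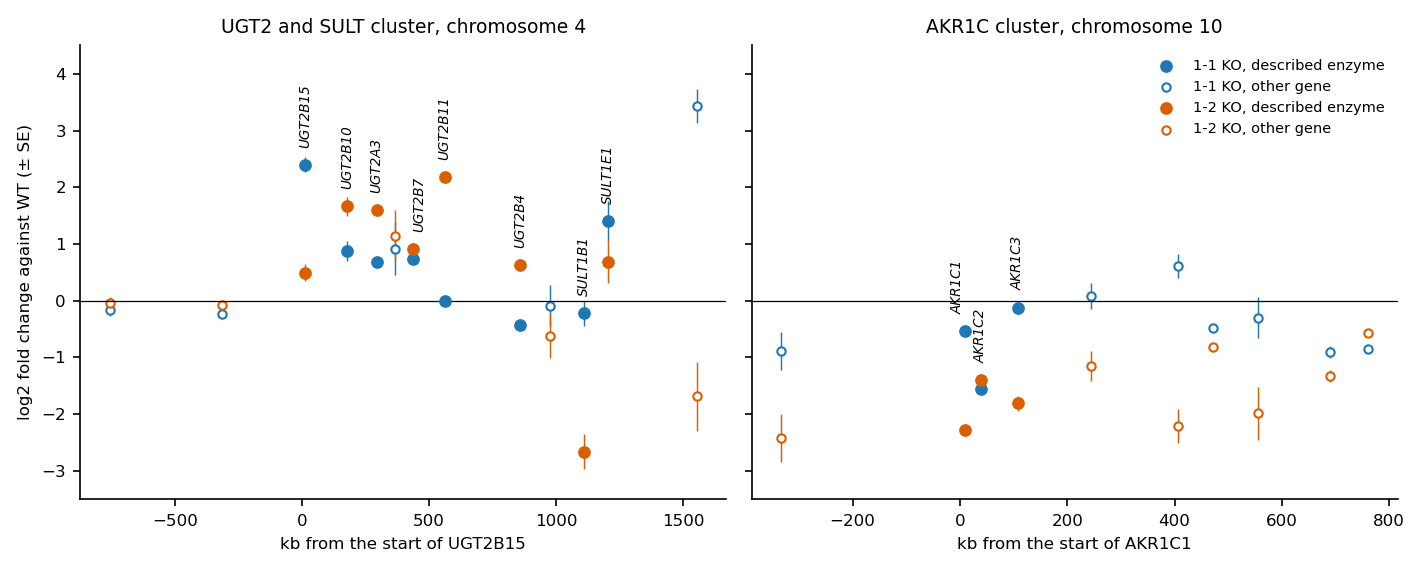
Log2 fold change against WT (vertical axis, bars are standard errors) by distance in kb from the start of UGT2B15 (left) and AKR1C1 (right), for members (filled) and other tested genes (open) in 1-1 KO (blue) and 1-2 KO (orange). Other genes that stayed within 3 counts throughout a line are not drawn. SULT1B1 lies at −2.67 in 1-2 KO beyond the UGT2 genes at the right, and in the right panel the 1-2 KO points of members and of the 7 other genes all lie below 0.

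Aldo-keto reductases were the family that fell furthest. All 4 fell past a log2 fold change of 1 in 1-2 KO, with a median of −2.05, and 3 of 4 fell in 1-1 KO, with a median of −1.05. Of all tested genes, 11.7% passed that limit in either direction in 1-2 KO, and 30.9% were called lower in 1-1 KO. The summed level of the 4 reductases went from 424 ± 9.92 CPM (SD, n = 3) in WT to 202 ± 3.76 in 1-1 KO and 122 ± 7.52 in 1-2 KO.

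AKR1B10 (chr7:134527567-134541412), a retinal and aldehyde reductase that is often high in liver tumours, was read at 29.4, 30.3 and 28.5 CPM in WT. It stood at 2.15, 1.58 and 2.08 CPM in 1-1 KO and at 4.6, 3.89 and 5.39 CPM in 1-2 KO, far below WT in every library. It was 15.2-fold lower in 1-1 KO (log2 fold change −3.92 ± 0.12 SE, adjusted p = 3.36e-12) and 6.35-fold lower in 1-2 KO (−2.67 ± 0.10 SE, adjusted p = 5.78e-11). With the median of its 50 nearest genes subtracted, the values were −3.57 and −2.67.

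AKR1C1 and AKR1C2 reduce progesterone and dihydrotestosterone, and AKR1C3 makes testosterone and prostaglandin F from their ketone precursors. AKR1C1 (chr10:4963253-4983283) was read at 176, 186 and 177 CPM in WT, at 125, 122 and 127 CPM in 1-1 KO and at 38.6, 35.0 and 37.5 CPM in 1-2 KO. It was 1.44-fold lower in 1-1 KO (log2 fold change −0.53 ± 0.04 SE, adjusted p = 3.72e-08) and 4.85-fold lower in 1-2 KO (−2.28 ± 0.04 SE, adjusted p = 4.90e-14). AKR1C2 (chr10:4987775-5018031) was at 210, 216 and 208 CPM in WT, at 68.0, 73.1 and 74.0 CPM in 1-1 KO and at 76.1, 76.4 and 86.7 CPM in 1-2 KO. The order of the knockouts was thus not the same for these neighbours, since AKR1C1 was lower in 1-2 KO than in 1-1 KO and AKR1C2 was not. AKR1C2 was 2.95-fold lower in 1-1 KO (−1.56 ± 0.05 SE, adjusted p = 7.68e-12) and 2.65-fold lower in 1-2 KO (−1.41 ± 0.05 SE, adjusted p = 2.43e-11). AKR1C3 (chr10:5035354-5107686) was at 3.62, 3.57 and 3.90 CPM in WT and at 3.83, 3.23 and 3.11 CPM in 1-1 KO, which overlapped. In 1-2 KO it fell to 1.04, 0.954 and 1.15 CPM (log2 fold change −1.81 ± 0.13 SE, adjusted p = 5.02e-08).

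**Figure D5:**
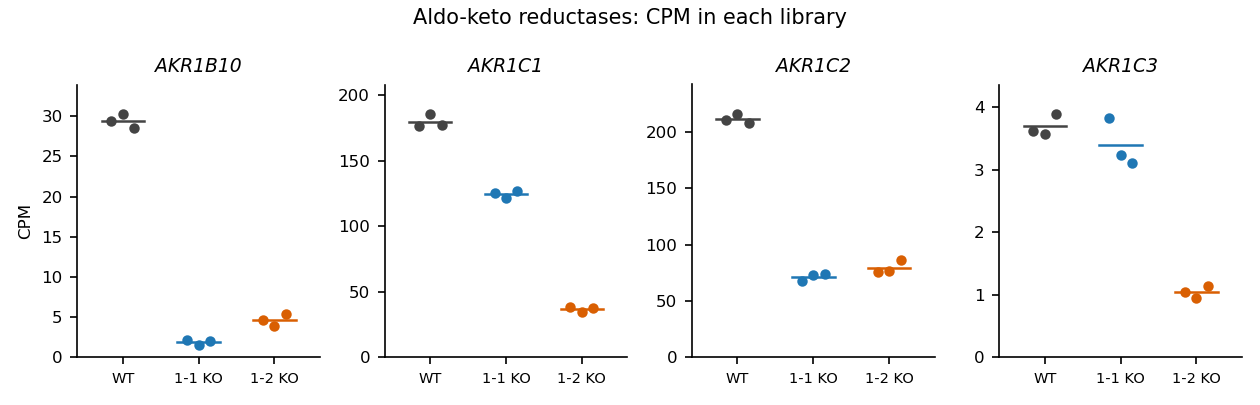
CPM (vertical axes, each starting at 0) of the 4 aldo-keto reductases in the 3 libraries of each line, with a bar at each mean. AKR1B10 and AKR1C2 lie far below WT in both knockouts, AKR1C1 falls in steps from 180 to 125 to 37.0 CPM on average, and AKR1C3 is low in 1-2 KO only among the 3 lines.

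Many genes around the AKR1C cluster were lower too. Its 50 nearest tested non-member genes had a median log2 fold change of −0.72 in 1-1 KO and −0.71 in 1-2 KO. Within 600 kb of the cluster, all 7 other tested genes were lower in 1-2 KO, with log2 fold changes from −2.42 to −0.58, and 4 of 7 were lower in 1-1 KO, where UCN3 was higher (0.61, adjusted p = 0.0183). With the neighbours' median subtracted, AKR1C1, AKR1C2 and AKR1C3 still stood at −1.57, −0.70 and −1.10 in 1-2 KO. In 1-1 KO the same step left AKR1C2 at −0.84 and turned AKR1C1 to 0.19 (adjusted p = 0.000710) and AKR1C3 to 0.60 (adjusted p = 0.000439). Reads are a further limit here, since 35.2% of the AKR1C2 transcripts in stretches of 50 bases also occurs in AKR1C1.

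The sequences before the starts of AKR1C1 and AKR1C2 are shown because these genes changed unequally with nearly the same 250 bases. Of 246 aligned bases, 245 were identical, which is 99.6%, while AKR1C1 and AKR1C3 had 79.4% in common. Capitals mark bases with no identical partner, 5′ to 3′ on the gene's strand, with AKR1C1 at chr10:4963165-4963414 (GRCh38.p14, plus strand) and AKR1C2 at chr10:5003858-5004107 (minus strand). Both windows reach into the extent that GENCODE gives these genes, since the RefSeq start was used.
AKR1C1: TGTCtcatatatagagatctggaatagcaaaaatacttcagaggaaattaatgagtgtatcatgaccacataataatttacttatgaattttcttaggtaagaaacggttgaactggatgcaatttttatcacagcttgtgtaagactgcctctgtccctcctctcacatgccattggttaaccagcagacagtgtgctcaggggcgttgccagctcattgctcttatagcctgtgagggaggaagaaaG
AKR1C2: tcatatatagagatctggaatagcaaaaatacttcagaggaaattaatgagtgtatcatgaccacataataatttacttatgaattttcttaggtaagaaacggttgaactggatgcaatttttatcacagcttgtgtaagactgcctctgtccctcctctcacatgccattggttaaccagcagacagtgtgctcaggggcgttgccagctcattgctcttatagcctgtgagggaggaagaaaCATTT

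Among the 13 GSTs and MGSTs, 1-1 KO had 4 rises and 5 falls (median log2 fold change −0.03), while 1-2 KO had 1 rise and 9 falls (median −0.44). That is 69.2% and 76.9% called, beside 63.4% and 54.4% of all tested genes. Most of these changes were small, and only GSTA1 and GSTA2 passed a log2 fold change of 1. GSTP1, a widely expressed enzyme that conjugates electrophiles, made up 60.9% of the family's summed CPM in WT, 62.5% in 1-1 KO and 76.3% in 1-2 KO. The family sum was 1814 ± 24.1 CPM (SD, n = 3), 1728 ± 8.04 and 2063 ± 51.4 in these lines.

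GSTP1 (chr11:67583742-67586656) was read at 1092, 1098 and 1125 CPM in WT and at 1091, 1074 and 1073 CPM in 1-1 KO, ranges that did not overlap although the difference was not called (log2 fold change −0.03 ± 0.03 SE, adjusted p = 0.400). In 1-2 KO it stood at 1596, 1513 and 1610 CPM, 1.42-fold higher (0.51 ± 0.03 SE, adjusted p = 1.98e-08). It was the only member outside the UGTs that rose in 1-2 KO.

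GSTA1 and GSTA2, the alpha class enzymes that mark differentiated hepatocytes, rose together in 1-1 KO. GSTA1 (chr6:52791371-52803860) was at 22, 24 and 23 counts in WT, at 83, 74 and 61 counts in 1-1 KO and at 14, 27 and 16 counts in 1-2 KO. GSTA2 (chr6:52750087-52763475) was at 55, 76 and 63 counts in WT, at 216, 191 and 177 counts in 1-1 KO and at 32, 30 and 25 counts in 1-2 KO. The rises in 1-1 KO were 2.73-fold and 2.61-fold, with log2 fold changes of 1.46 ± 0.22 (SE, adjusted p = 4.96e-05) and 1.39 ± 0.14 (SE, adjusted p = 1.18e-06). In 1-2 KO, GSTA2 fell below every WT library (−1.32 ± 0.19 SE, adjusted p = 3.31e-05), and GSTA1 overlapped WT (−0.44 ± 0.28 SE, adjusted p = 0.197), with −0.79 (adjusted p = 0.0300) when 1-2 KO replicate 2 was left out. The genes around them had a median of −0.41 in 1-2 KO, and with it subtracted GSTA2 stood at −0.92 and GSTA1 at −0.03. Their upstream bases are shown because the pair moved alike in 1-1 KO, and 243 of 250 bases were identical, which is 97.2%. Capitals mark the bases that differ, 5′ to 3′ on the minus strand, with GSTA1 at chr6:52803817-52804066 and GSTA2 at chr6:52763476-52763725 (GRCh38.p14). Since the RefSeq start was used, the GSTA1 window reaches into the extent that GENCODE gives this gene. Of the transcript sequence in stretches of 50 bases, 19.7% of GSTA1 also occurs in GSTA2.
GSTA1: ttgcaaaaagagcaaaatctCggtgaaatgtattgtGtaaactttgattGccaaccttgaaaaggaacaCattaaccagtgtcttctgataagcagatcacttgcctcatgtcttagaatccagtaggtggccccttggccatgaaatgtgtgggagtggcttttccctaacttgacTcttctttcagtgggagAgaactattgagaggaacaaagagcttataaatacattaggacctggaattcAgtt
GSTA2: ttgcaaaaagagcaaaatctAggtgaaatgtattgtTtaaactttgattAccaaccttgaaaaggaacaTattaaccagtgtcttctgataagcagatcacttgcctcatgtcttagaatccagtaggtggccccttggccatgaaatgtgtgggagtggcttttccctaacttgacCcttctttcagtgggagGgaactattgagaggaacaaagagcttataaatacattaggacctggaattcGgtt

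GSTA4, which removes the lipid peroxidation product hydroxynonenal, fell in both knockouts, from 38.7, 39.7 and 38.7 CPM in WT to 32.9, 31.1 and 31.7 CPM in 1-1 KO and 26.1, 27.0 and 26 CPM in 1-2 KO. GSTK1, found in mitochondria and peroxisomes, had its lower level in 1-1 KO. It was read at 105, 97.1 and 99.0 CPM in WT, at 54.7, 58.2 and 58.5 CPM in 1-1 KO and at 66.9, 67.7 and 72.9 CPM in 1-2 KO. Its log2 fold changes were −0.81 ± 0.05 (SE, adjusted p = 2.21e-09) and −0.54 ± 0.05 (SE, adjusted p = 1.95e-07).

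The mu class on chromosome 1 was unequal. GSTM4 fell by 0.62 ± 0.06 (SE, adjusted p = 4.26e-07) on the log2 scale in 1-1 KO and by 0.39 ± 0.06 (SE, adjusted p = 4.74e-05) in 1-2 KO, and GSTM3 by 0.17 ± 0.04 (SE, adjusted p = 0.00264) and 0.47 ± 0.04 (SE, adjusted p = 4.56e-07). GSTM2 was read between 6.86 and 7.78 CPM in all 9 libraries. Genes around this cluster had medians from −0.23 to −0.21 in 1-1 KO and from −0.40 to −0.38 in 1-2 KO. With these subtracted, GSTM3 was at 0.03 in 1-1 KO and −0.07 in 1-2 KO, no longer called, GSTM4 was at 0.0032 in 1-2 KO, and GSTM2 was called higher at 0.23 in 1-1 KO and 0.36 in 1-2 KO.

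GSTO1, the omega class enzyme that reduces methylated arsenic, and GSTZ1, which isomerizes a tyrosine breakdown product, were called in 1-2 KO alone of the comparisons with WT. GSTO1 was at 157, 172 and 161 CPM in WT, 156, 152 and 164 CPM in 1-1 KO and 113, 117 and 114 CPM in 1-2 KO, where the log2 fold change was −0.51 ± 0.04 (SE, adjusted p = 1.11e-07). GSTZ1 fell by 0.44 ± 0.08 on the log2 scale (SE, adjusted p = 0.000254) in 1-2 KO.

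Of the microsomal enzymes, MGST1, which conjugates glutathione at the endoplasmic reticulum and outer mitochondrial membrane, fell in both. It was read at 224, 244 and 226 CPM in WT, at 201, 205 and 202 CPM in 1-1 KO and at 131, 138 and 139 CPM in 1-2 KO, with log2 fold changes of −0.19 ± 0.04 (SE, adjusted p = 0.000703) and −0.76 ± 0.04 (SE, adjusted p = 1.06e-09). MGST2, which can make leukotriene C, rose from 57.8, 63.7 and 60.5 CPM in WT to 81.8, 80.9 and 88.5 CPM in 1-1 KO and fell to 53.1, 49.9 and 50.1 CPM in 1-2 KO. MGST3 rose in 1-1 KO (0.44 ± 0.05 SE, adjusted p = 5.26e-06) and had a log2 fold change of 0.01 ± 0.05 (SE, adjusted p = 0.880) in 1-2 KO.

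The N-acetyltransferases differed by gene. NAT1, which is made in most tissues, rose in 1-1 KO, from 8.44, 9.30 and 8.33 CPM in WT to 10.6, 12.8 and 10.7 CPM (log2 fold change 0.39 ± 0.09 SE, adjusted p = 0.00185), and overlapped WT in 1-2 KO at 8.59, 9.79 and 8.63 CPM. NAT2, the polymorphic isoniazid acetylator of liver, was at 2.56, 2.82 and 2.19 CPM in WT and 3.07, 3.6 and 2.87 CPM in 1-1 KO, above WT but not called (0.33 ± 0.14 SE, adjusted p = 0.0560). NAT2 was called there in several alternative fits, with adjusted p from 0.0319 (neighbours subtracted) to 0.0469 (the compared lines alone). It was also called without WT replicate 2 (adjusted p = 0.0406) or 1-1 KO replicate 3 (adjusted p = 0.0432). In 1-2 KO, NAT2 fell to 1.47, 1.25 and 1.10 CPM (−0.99 ± 0.16 SE, adjusted p = 0.000106).

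Both methyltransferases fell in 1-2 KO. TPMT, which inactivates thiopurine drugs, was at 32, 36.7 and 31.4 CPM in WT, at 37.4, 33.9 and 36.8 CPM in 1-1 KO and at 18.4, 19.3 and 17.8 CPM in 1-2 KO. It was 1.80-fold lower in 1-2 KO (log2 fold change −0.85 ± 0.07 SE, adjusted p = 8.57e-08) and overlapped WT in 1-1 KO (0.11 ± 0.06 SE, adjusted p = 0.146, and 0.18 with adjusted p = 0.0203 without WT replicate 2). NNMT, which methylates nicotinamide, was at 3.84, 3.89 and 3.48 CPM in WT, at 3.12, 3.06 and 3.18 CPM in 1-1 KO and at 2.49, 2.16 and 2.67 CPM in 1-2 KO. The log2 fold change was −0.62 ± 0.11 (SE, adjusted p = 0.000305) in 1-2 KO and −0.26 ± 0.11 (SE, adjusted p = 0.0468) in 1-1 KO, where the call was lost when any 1 of WT replicates 1 and 2 or of the 3 1-1 KO libraries was left out, with adjusted p from 0.0782 to 0.123. The NNMT call in 1-1 KO was also lost in 5 other alternatives, from the filter of 10 counts (adjusted p = 0.0581) to DESeq2 (adjusted p = 0.172). Besides these 5, the subtraction of neighbours lost it as well (adjusted p = 0.281).

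The epoxide hydrolases were higher in 1-1 KO by small amounts. EPHX1, the microsomal enzyme that opens epoxides of drugs and polycyclic hydrocarbons, was at 49.9, 51.5 and 54.8 CPM in WT, at 60.0, 58.2 and 58.4 CPM in 1-1 KO and at 40.0, 40.2 and 42.7 CPM in 1-2 KO. Its log2 fold changes were 0.18 ± 0.04 (SE, adjusted p = 0.00284) and −0.34 ± 0.04 (SE, adjusted p = 1.56e-05), with 3 ranges that did not overlap. EPHX2, which opens epoxides of fatty acids, rose by 0.25 ± 0.05 (SE, adjusted p = 0.000515) in 1-1 KO and had a value of 0.07 ± 0.05 (SE, adjusted p = 0.261) in 1-2 KO.

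Set against each other in the fit of all 9 libraries, the knockouts differed in 33 of 38 members, 9 higher and 24 lower in 1-2 KO. Of all tested genes, 65.3% differed, 33.1% higher and 32.2% lower. The median log2 fold change was −0.39 for members and 0.01 for all tested genes. Past a log2 fold change of 1, 3 members were higher and 10 lower, where 14.1% of all tested genes passed. UGT2B11 at 2.19 ± 0.08 (SE, adjusted p = 2.33e-11), AKR1B10 at 1.25 ± 0.13 (SE, adjusted p = 1.27e-06) and UGT2B4 at 1.06 ± 0.04 (SE, adjusted p = 1.55e-11) were the 3 higher ones. GSTA2 was 6.59-fold lower in 1-2 KO than in 1-1 KO (log2 fold change −2.71 ± 0.16 SE, adjusted p = 3.34e-09), SULT1B1 5.53-fold lower and SULT1A2 4.04-fold lower. The 5 members not called were UGT2B7, UGT3A1, SULT1C2, SULT1E1 and GSTM2. AKR1C2 was called higher by 0.15 ± 0.05 (SE, adjusted p = 0.0164), which was lost without 1-1 KO replicate 1 (adjusted p = 0.0954) or 1-2 KO replicate 3 (adjusted p = 0.0930), and the call of NNMT as lower (adjusted p = 0.0127) was lost without 1-2 KO replicate 2 (adjusted p = 0.0612) and with DESeq2 (adjusted p = 0.0835). SULT1E1 was called lower without 1-1 KO replicate 1 (adjusted p = 0.0308) or 1-2 KO replicate 2 (adjusted p = 0.0229).

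Per length, GSTP1 had the highest level of all 39 members in every line, at 627 CPM per kb of annotated exon in WT, 612 in 1-1 KO and 892 in 1-2 KO. The next was GSTO1 at 96.5 CPM per kb in WT, while MGST1 came next when the length of the canonical transcript was used, at 250 CPM per kb after 1492 for GSTP1. AKR1C2, MGST1 and UGT2B4 followed GSTO1 in WT at 34.8, 31.1 and 29.2 CPM per kb. In all, 31 members reached a mean of 1 CPM in WT, 35 in 1-1 KO and 31 in 1-2 KO. The summed level of the 39 genes was 2495 ± 33.8 CPM (SD, n = 3) in WT, 2193 ± 11.7 in 1-1 KO and 2471 ± 60.9 in 1-2 KO, and GSTP1 supplied 44.3%, 49.2% and 63.6% of it.

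Other genes of the same families gave a mixed picture, with 12 of 17 tested called in each knockout, 6 higher and 6 lower, which is 70.6% beside 63.4% of all tested genes in 1-1 KO and 54.4% in 1-2 KO. UGT8, which builds galactosylceramide, rose 10.8-fold in 1-1 KO (log2 fold change 3.44 ± 0.11 SE, adjusted p = 6.56e-12) and 3.36-fold in 1-2 KO. AKR1D1, the bile acid and steroid 5-beta-reductase, rose 3.98-fold and 5.08-fold, while AKR1B1, aldose reductase, fell 2.42-fold and 1.64-fold.

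Among 30 tested genes for other reductases and hydrolases, 1-1 KO had 16 rises and 4 falls, against 10 rises and 14 falls for 1-2 KO. That is 66.7% and 80% called, beside the same 63.4% and 54.4%. AADAC, an arylacetamide deacetylase, was 14.1-fold higher in 1-1 KO, and CBR4 was 2.68-fold higher. BCHE, which hydrolyses choline esters, and CES1, the main liver carboxylesterase, were 43.9-fold and 8.60-fold higher in 1-2 KO. BCHE was at least 4.63-fold lower in 1-1 KO, where it was at 3 counts or fewer per library.

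Of 30 genes for the supply and turnover of the cosubstrates, 12 were higher and 10 lower in 1-1 KO, with 6 higher and 12 lower in 1-2 KO. The shares called, 73.3% and 60%, lie near the 63.4% and 54.4% of all tested genes. GSR and GCLM, which regenerate and make glutathione, fell by 0.86 ± 0.03 (SE, adjusted p = 5.69e-11) and 0.88 ± 0.04 (SE, adjusted p = 1.39e-10) on the log2 scale in 1-1 KO, and by 0.24 ± 0.03 (SE) and 0.36 ± 0.04 (SE) in 1-2 KO. CHAC1, which degrades glutathione, rose 4.87-fold in 1-2 KO, and SLC35B2, which carries the sulfate donor into the Golgi, was 1.76-fold lower there.

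Of 26 tested regulators of these genes, 1-1 KO had 15 higher and 5 lower, against 13 and 6 for 1-2 KO. Of all tested genes, 32.5% were called higher and 30.9% lower in 1-1 KO, and 28.2% and 26.2% in 1-2 KO. The pregnane X receptor NR1I2, a drug sensor that induces UGTs and SULTs, was at 1.63 ± 0.31 CPM (SD, n = 3) in WT, 1.5 ± 0.21 in 1-1 KO and 0.517 ± 0.096 in 1-2 KO, a log2 fold change of −1.66 ± 0.21 (SE, adjusted p = 1.26e-05) in 1-2 KO. The bile acid receptor NR1H4 fell by 0.57 ± 0.04 (SE, adjusted p = 6.28e-08) and 1.54 ± 0.05 (SE, adjusted p = 4.03e-12), and NR5A2 rose by 0.22 ± 0.04 (SE) and 0.56 ± 0.04 (SE). NR1I3, the constitutive androstane receptor, had 0.00 ± 0.14 (SE, adjusted p = 0.979) in 1-1 KO and fell by 0.44 ± 0.14 (SE, adjusted p = 0.0178) in 1-2 KO. NFE2L2, which activates antioxidant genes, and BACH1, which represses such genes, both rose in 1-1 KO, by 0.50 ± 0.05 (SE, adjusted p = 3.66e-07) and 0.75 ± 0.04 (SE, adjusted p = 1.04e-09). Neither was called in 1-2 KO. The dioxin receptor AHR rose by 0.60 ± 0.05 (SE, adjusted p = 1.81e-07) in 1-1 KO, where its partner ARNT fell by 0.79 ± 0.06 (SE, adjusted p = 3.78e-08). HNF4A rose by 0.18 ± 0.04 (SE, adjusted p = 0.00171) in 1-2 KO.

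Of 7 tested hydrolases listed as deconjugating enzymes, 1-1 KO had 3 higher and 2 lower, against 1 and 4 for 1-2 KO. Not all of them act on conjugates of drugs or hormones, ARSB among them. The counts are 71.4% called in each, beside 63.4% and 54.4% of all tested genes. Steroid sulfatase (STS), which reverses the SULTs, was at 0.125 ± 0.070 CPM (SD, n = 3) in WT, 8.18 ± 0.49 in 1-1 KO and 0.0655 ± 0.038 in 1-2 KO, 65.7-fold higher in 1-1 KO (log2 fold change 6.06 ± 0.22 SE, adjusted p = 2.89e-11). GUSB, the lysosomal beta-glucuronidase that reverses the UGTs, fell by 0.32 ± 0.04 (SE, adjusted p = 3.43e-06) and 0.49 ± 0.04 (SE, adjusted p = 6.49e-08), and ARSB by 0.80 ± 0.04 (SE, adjusted p = 1.5e-09) and 0.55 ± 0.04 (SE, adjusted p = 8.55e-08).

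Upstream sequences of 30 members could be matched in the RefSeq table (GRCh38.p14), and UGT2B4, SULT1A1, SULT1A2, MGST2, NAT1, NAT2, NNMT, EPHX2 and AKR1B10 had no entry. In the 250 bases before each start, matches to 3 motifs on both strands are described, and none of these matches overlapped another in a member. The core of the antioxidant response element, TGACNNNGC, was found in 6 of 30 members, which is 20%, beside 11.0% of 27305 promoters. GSTP1 held it at 66 to 58 bases before the start, and GSTA4, GSTO1, SULT1C2, UGT2B10 and UGT2B11 held it as well. The matches in GSTP1, GSTA4, GSTO1 and SULT1C2 lie within the extent that GENCODE gives these genes, since the RefSeq start was used. Of the 6 members that held it, only UGT2B10 was called higher in 1-1 KO, and GSTA4 and SULT1C2 fell there. In 1-2 KO, GSTP1, UGT2B10 and UGT2B11 rose and GSTA4, GSTO1 and SULT1C2 fell. TNGCGTG, which the AHR-ARNT pair binds, was found in UGT1A6 and SULT2B1, which is 6.67% beside 4.53%. The letters of the TATA box, TATAAA, were found on either strand in 9 members, 30.0% beside 11.1%. On the gene's own strand they began 30 bases before the RefSeq start in GSTA1 and GSTA2 and 29 in SULT1E1. In UGT2B10 and UGT2B11 they began 179 to 248 bases before it. In AKR1C3, SULT1B1, UGT1A1 and GSTO1 they lay on the opposite strand, from 26, 29, 92 and 216 bases before it. A match describes the letters only.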

How the data were processed

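Total RNA of 9 Huh-7 libraries, 3 for each of the 3 lines, was made into stranded mRNA libraries and sequenced in pairs. The authors aligned the reads with STAR to GRCh38 and counted them per gene with featureCounts; per the labels the deposited values are raw read counts, and the strand and multimapping settings of the counting are not given in the sources used here, so that near-identical and overlapping genes may share reads. Groups were taken from the labels. Gene symbols and positions came from GENCODE, and 60463 of 60664 identifiers matched.

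Counts were tested with edgeR 4.0.16 in R 4.3.3. Genes were kept by filterByExpr (minimum count 10, minimum total 15), scaled with TMM and fitted over all 9 libraries with the quasi-likelihood test, adjusted by Benjamini-Hochberg over 17207 genes. The biological coefficient of variation was 5.55%. The fit was tested on simulated data. Between 32384469 and 41782387 counts per library limit the precision for genes of few counts, and 3 counts per library were taken as the floor for folds. Members, lists and tests were chosen with earlier results of these data known. All members are named, and of each related list the 2 tested genes with the smallest adjusted p in each knockout against WT, together with NR1I2, NR1I3, AHR, NFE2L2 and HNF4A; UGT2B17 and UGT2B28 were named after their values were seen. Alternatives were DESeq2 1.42.0, its size factors, library size alone, other filters, the compared lines alone, a replicate block, leaving out each library, and subtraction of the median of the 50 nearest tested genes. Shared sequence was counted in stretches of 50 bases of GENCODE transcripts, and upstream sequences came from RefSeq. One regulator and the motif searched for it are not reported here.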

Additional observations from a re-analysis of the deposited data

How the results depend on the processing

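Of 114 fold changes of members, 114 kept their call with DESeq2's size factors, 110 with DESeq2's test and 110 with library size alone. A change of sign was counted only where the main fit or the alternative called the gene. Subtracting the neighbours' median kept 100 of 114 calls and reversed 8 signs by that rule. In 1-1 KO these were GSTM3 (0.034), GSTZ1 (−0.28), AKR1C1 (0.19) and AKR1C3 (0.60). In 1-2 KO they were GSTM2 (0.36) and GSTM4 (0.0032), and between the knockouts GSTA4 (0.093) and GSTK1 (−0.18). Signs also turned where neither fit called the gene, as for GSTO1 in 1-1 KO, from −0.051 to 0.051. The cause was not tested. Requiring a log2 fold change over 1 left 8 members in 1-1 KO, 13 in 1-2 KO and 13 between the knockouts, and for each knockout against WT, 1-1 KO first, 5 and 5 of the same families, 7 and 6 reductases and hydrolases, 1 and 1 cosubstrate genes, 0 and 2 regulators, and 2 and 1 deconjugating enzymes, by its construction. With at least 10 counts in every library, 3 deconjugating enzymes were called in 1-1 KO, of 5 tested.

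Leaving out 1 library gave 26 to 29 members called in 1-1 KO, 30 to 32 in 1-2 KO and 32 to 33 between them. The cosubstrate genes called in 1-1 KO went from 22 to between 17 and 19. The other reductases and hydrolases called in 1-2 KO went from 24 to between 21 and 23. Deviations of same-numbered libraries had correlations of −0.187 to 0.0474, and WT 3 with 1-2 KO 1, of unlike numbers, reached 0.237. No label says whether the numbers pair the libraries, and 3 libraries per line cannot decide it. With the replicate block, 28, 31 and 34 members were called (in 1-1 KO NAT2 was gained and NNMT lost, and SULT1E1 was gained between the knockouts), with 11 and 12 of the same families, 20 and 23 reductases and hydrolases, 20 and 18 cosubstrate genes, 20 and 19 regulators and 5 and 4 deconjugating enzymes, 1-1 KO first. Genes of few counts, UGT3A1, SULT1E1 and SULT1B1 among them, are limited by depth.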
